A study of Mus musculus with 6 samples.

Results

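Among the enhancers predicted in oligodendrocyte precursor cells (OPCs) after interferon-γ (IFN-γ), 3602 elements had an activity of at least 1 and overlapped no element of the untreated cells by even 1 bp. These IFN-γ-only active elements were 26.6% of the 13562 active elements of the IFN-γ table, which held 35906 unique elements in all; the Ctr table held 33083. They were chosen by their activity and by their absence from the Ctr table, so those values are given as a description. The elements came from the activity-by-contact (ABC) model, in which the activity of an element (its ATAC-seq and H3K27ac signal) is multiplied by its contact with a promoter and divided by the same product summed over all elements around that gene. The quotient is the ABC score, and a gene with its element is called a pair here.

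Both conditions used primary OPCs of Sox10-Cre/RCE mice, labelled C57BL/6j, although by the study's methods the reporter parent had a mixed C57BL/6 and CD1 background. In these mice Sox10-driven Cre switches on EGFP throughout the oligodendrocyte lineage, so both groups carried the Cre and the reporter. Brains of several pups of both sexes, 4 to 6 days old, were pooled, and OPCs were taken by their Sox10-GFP signal or by CD140a beads and grown in proliferation medium. The Ctr-OPCs stayed in control medium and the IFN-γ-OPCs received 100 ng/mL IFN-γ from 24 h after passaging, with 48 h of treatment in the study's culture methods. H3K27ac HiChIP, which enriches chromatin contacts at acetylated sites, was done on 3 libraries per condition from different litters, but each condition was deposited as 1 pooled table, so no value has a replicate error and no difference between conditions has a test. The 95% intervals below (Wilson for shares, order statistics for medians) cover counting error over elements or genes only, and the sequencing depth is unknown.

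IFN-γ binds its receptor and acts through the JAK kinases. STAT-family dimers bind GAS sites, and factors of the IRF family bind interferon-stimulated response elements (ISREs). Their targets include the chemokines Cxcl9 and Cxcl10, the guanylate-binding proteins (Gbp) and immunity-related GTPases (Irg) that attack intracellular pathogens, and the MHC genes that present antigen. OPCs are the proliferating, PDGFRα-positive cells that give rise to myelinating oligodendrocytes, and OLIG2 and SOX10 are transcription factors of that lineage.

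The following sequences show where ISRE-like letters (GAAANNGAAA on either strand) or GAS-like letters (TTCNNNGAA) lay in IFN-γ-only active elements paired above 0.05, the study's own threshold, with a gene of the interferon or lineage lists described below. They come from 9 of the 11 such elements of the interferon lists and both of the lineage list, and those at Il18bp (2 ISRE-like and 2 GAS-like matches) and Iigp1 (1 of each) are named only. They are read 5′ to 3′ on the plus strand of mm10 from the GRCm38.p6 RefSeq genome, and capitals mark the matches. The match nearest to the element's centre is shown with 25 bp on each side.

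Cxcl10 and Cxcl9, ISRE-like, chr5:92332482-92332541, in an intron of Art3: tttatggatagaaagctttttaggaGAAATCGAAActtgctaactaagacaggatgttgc
Gbp4, Gbp8 and Gbp9, ISRE-like, chr5:105145704-105145763, intergenic: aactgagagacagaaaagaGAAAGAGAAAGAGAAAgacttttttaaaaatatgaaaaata
Gbp4, Gbp8 and Gbp9, GAS-like, chr5:105145839-105145897, intergenic: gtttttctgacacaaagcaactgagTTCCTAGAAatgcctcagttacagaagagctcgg
Gbp11, ISRE-like, chr5:105354018-105354077, intergenic: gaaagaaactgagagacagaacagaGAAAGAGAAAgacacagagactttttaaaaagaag
Gbp11, GAS-like, chr5:105354173-105354231, intergenic: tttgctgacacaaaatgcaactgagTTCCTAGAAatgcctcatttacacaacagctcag
Socs1, ISRE-like, chr16:10787270-10787329, intergenic: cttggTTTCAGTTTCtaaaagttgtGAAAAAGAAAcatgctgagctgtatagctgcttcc
Dtx3l and Parp9, ISRE-like, chr16:35918876-35918935, intergenic: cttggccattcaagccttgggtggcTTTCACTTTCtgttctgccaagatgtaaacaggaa
Ifit3, ISRE-like, chr19:34570168-34570227, in an intron of Ifit2: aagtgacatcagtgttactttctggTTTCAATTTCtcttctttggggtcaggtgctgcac
Irf1, GAS-like, chr11:53779983-53780041, intergenic: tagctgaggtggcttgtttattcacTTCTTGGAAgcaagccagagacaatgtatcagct
Igtp and Irgm2, GAS-like, chr11:58193640-58193698, intergenic: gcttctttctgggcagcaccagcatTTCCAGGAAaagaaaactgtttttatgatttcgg
Lap3, GAS-like, chr5:45495601-45495659, in an intron of Lap3: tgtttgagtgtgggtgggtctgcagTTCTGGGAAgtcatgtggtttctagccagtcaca
Bcan, ISRE-like, chr3:87999063-87999122, in an intron of Bcan: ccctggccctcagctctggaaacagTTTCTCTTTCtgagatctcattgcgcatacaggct
Nfib, GAS-like, chr4:82704931-82704989, in an intron of Nfib: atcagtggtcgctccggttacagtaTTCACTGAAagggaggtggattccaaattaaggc

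The Gbp4 and Gbp11 elements, at either end of the same gene cluster, had the same letters in the GAS-like match and in an ISRE-like match. Tandem matches were also seen. The element on chromosome 1 nearest to Rgs1 held 6 ISRE-like matches in 500 bp, and the 120 bp with the most of them is a short repeat unit that carries the motif 5 times.

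Element nearest to Rgs1, ISRE-like, chr1:144215332-144215451, intergenic: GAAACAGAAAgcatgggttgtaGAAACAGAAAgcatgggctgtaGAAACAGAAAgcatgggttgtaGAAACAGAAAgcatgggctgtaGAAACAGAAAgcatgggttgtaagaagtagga

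ISRE-like letters were more frequent in the IFN-γ-only active elements than in any of the other sets of elements compared, and sequence played no part in choosing them. A match lay in 693 of the 3602 elements, 19.2% (18.0 to 20.6). In the 9960 active elements that overlapped a Ctr element (shared active elements) the share was 9.20% (8.64 to 9.78), and in the 3248 active Ctr elements that overlapped no IFN-γ element (Ctr-only active elements, 23.5% of the 13799 active ones) it was 8.96% (8.03 to 9.99). The intervals of both other sets lay below that of the IFN-γ-only elements.

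The sets differed in length, with medians of 640.5 bp for the IFN-γ-only, 500 bp for the shared and 969 bp for the Ctr-only active elements, so the comparison was repeated over elements of exactly 500 bp, the model's window around an accessibility summit (longer elements are merged windows). Of 1783 such IFN-γ-only elements 19.8% (18.0 to 21.7) had an ISRE-like match. Of 7332 shared elements 7.79% did (7.20 to 8.42), and of 1129 Ctr-only elements 4.43% (3.38 to 5.79). The 6737 IFN-γ-only elements of 500 bp with activity under 1 lay between, at 12.1% (11.3 to 12.9). With 3 free bases between the same letters (GAAANNNGAAA), searched as a comparison, the shares were 7.18% (6.07 to 8.47), 4.81% (4.35 to 5.33) and 3.90% (2.92 to 5.19) in the same order, so the sets were also unequal for this spacing, but by less.

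GAS-like letters showed a smaller difference, 19.9% (18.1 to 21.8) of the IFN-γ-only against 15.0% (14.2 to 15.8) of the shared and 13.4% (11.5 to 15.5) of the Ctr-only active elements of 500 bp. The AP-1-like letters TGANTCA were in 19.6% (17.9 to 21.5), 15.7% (14.9 to 16.6) and 13.6% (11.8 to 15.8) of them. Of the other letters searched, here in the central 500 bp of all elements, the E-box CAGCTG was less frequent in the IFN-γ-only than in the shared active elements, at 35.0% (33.5 to 36.6) against 40.7% (39.8 to 41.7), as were the CTCF-like letters CCNNNAGGGGGC, at 1.67% (1.30 to 2.14) against 2.66% (2.36 to 3.00). Over whole elements, which differ in length, the E-box share was instead higher in the IFN-γ-only ones, 50.9% (49.3 to 52.6) against 47.4% (46.4 to 48.3), and the CTCF-like intervals overlapped (3.22% against 3.48%). The SOX-like letters ACAATGG (8.69% against 8.42%) and the ETS-like letters AGGAAGT (13.6% against 13.0%) had overlapping intervals in the central 500 bp but were more frequent in the IFN-γ-only ones over whole elements (13.8% against 10.6% and 22.6% against 16.7%). In the central 500 bp the NF-κB-like letters GGGANTTTCC (0.305% against 0.633%) and NFI-like letters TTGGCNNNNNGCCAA (0.111% against 0.121%) were rare in both. Matches were counted on both strands and may overlap each other. They describe letters and not bound factors.

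**Figure D1:**
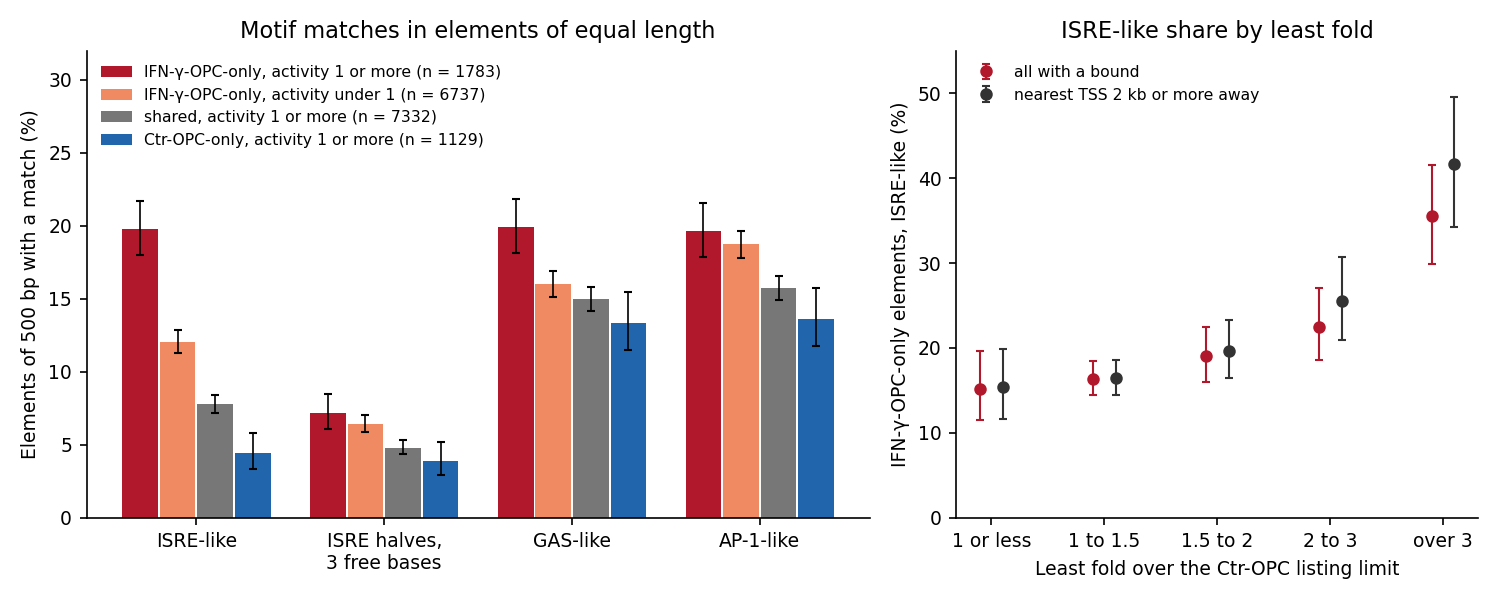
Left, share of elements of exactly 500 bp (y, %) with a match to each motif in 4 sets of elements; bars are shares and error bars 95% Wilson intervals. Right, share of IFN-γ-only active elements with an ISRE-like match (y, %, with the same intervals) by the least fold of activity times contact over the Ctr listing limit (x), for all (red) and for those 2 kb or more from a TSS (black). The ISRE-like share was 19.8% in IFN-γ-only active elements against 7.79% in shared and 4.43% in Ctr-only active elements, and it was 35.5% where the least fold was over 3.

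The ISRE-like matches of the IFN-γ-only elements also lay near the element centre, where the accessibility summit was. In 500 bp elements, 186 of 432 matches (43.1%, 38.5 to 47.8) were within 50 bp of the centre, a window that holds 20.6% of all possible positions. In the shared active elements it was 143 of 635 (22.5%, 19.4 to 25.9), close to the share of positions. In the Ctr-only active elements it was 1 of 62 (1.61%, 0.285 to 8.59), fewer than the share of positions, while the CAGCTG matches of the Ctr-only elements were central as often as in the IFN-γ-only ones (32.5% and 30.6%). GAS-like matches of the IFN-γ-only elements were central in 24.5% (20.6 to 28.9) and AP-1-like matches in 30.4% (26.1 to 35.0).

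**Figure D2:**
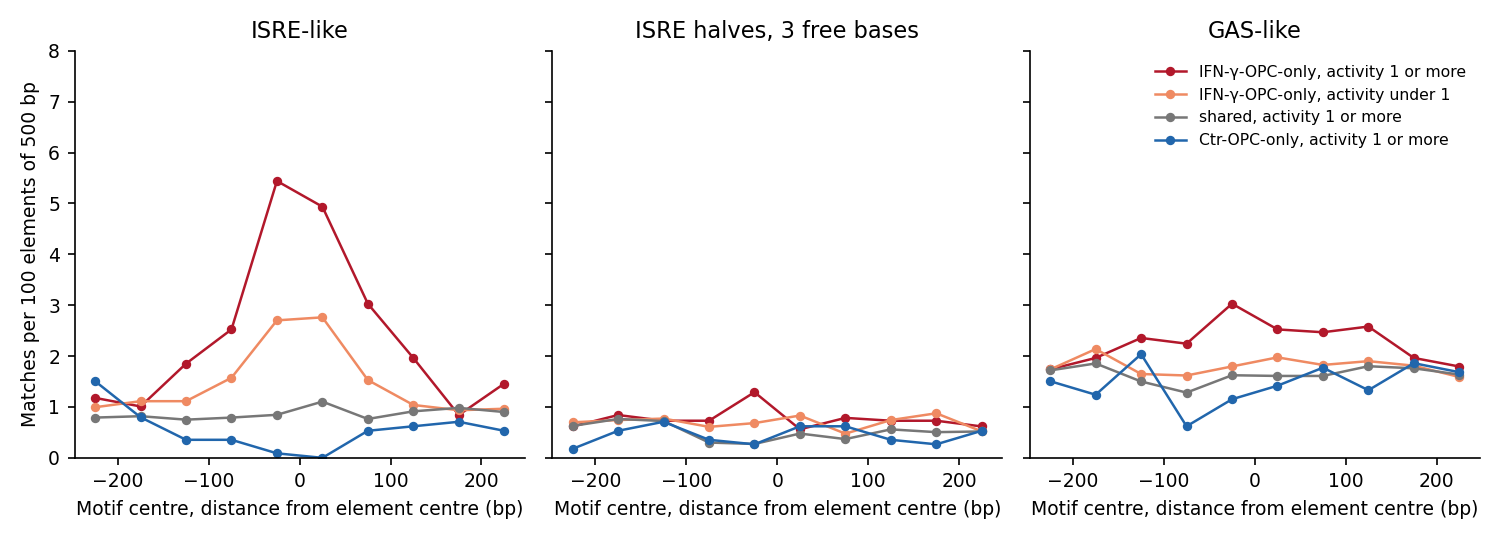
Number of motif matches per 100 elements of 500 bp (y) by the distance of the motif centre from the element centre (x, bp, in windows of 50 bp) in 4 sets of elements. ISRE-like matches of IFN-γ-only elements peaked at the centre (43.1% within 50 bp for those of activity 1 or more), matches of shared elements were spread evenly, and Ctr-only elements had 1 of 62 matches there.

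An element missing from the Ctr table was not necessarily inactive in Ctr-OPCs, because the tables start at an ABC score of 0.02, list no promoter elements and keep only genes whose promoter activity quantile is at least 0.4. For 2806 of the 3602 elements at least 1 target gene was listed in the Ctr table, and for those a limit can be set. If the place was scored there as an enhancer, its activity times contact was below 0.02 of the gene's total in Ctr-OPCs, and the value in IFN-γ-OPCs divided by that limit is the least fold of the difference. The limit does not hold for a place that the Ctr run classed as a promoter, and 265 elements (7.36%) had an annotated transcription start site (TSS) within 2 kb. The median least fold was 1.39, 2509 elements were above 1, 623 were at 2 or more and 259 at 3 or more. ISRE-like matches were in 45 of 297 elements at 1 or less (15.2%, 11.5 to 19.7), 217 of 1323 between 1 and 1.5 (16.4%, 14.5 to 18.5), 107 of 563 between 1.5 and 2 (19.01%, 16.0 to 22.5), 82 of 364 between 2 and 3 (22.5%, 18.5 to 27.1) and 92 of 259 over 3 (35.5%, 29.9 to 41.5). Among elements at least 2 kb from every TSS the last share was 65 of 156 (41.7%, 34.2 to 49.5). The comparison spacing GAAANNNGAAA was in 5.39% (3.34 to 8.57) at 1 or less, 9.67% (8.197 to 11.4) between 1 and 1.5, 11.0% (8.69 to 13.9) between 1.5 and 2, 11.8% (8.89 to 15.5) between 2 and 3 and 8.88% (5.99 to 13.0) over 3. Its share was thus also higher from each range to the next up to 3, and lower over 3.

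Activity was low for most of the elements. The median was 1.32 (quartiles 1.13 and 1.69) against 1.67 in the shared and 1.33 in the Ctr-only active elements. The 3 elements just above the minimum had activities between 1.0001 and 1.0002, nearest to Rspo4, Marcks and Syt11, and the 3 just below it had 0.9996 to 0.9999, nearest to Ntn1, Tnp1 and Alg14. The share with an ISRE-like match was 17.0% (14.7 to 19.6) in the 901 elements of lowest activity and 22.97% (20.4 to 25.8) in the 901 of highest activity. In the 2490 shared active elements at each end it was 9.56% and 8.96%.

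The highest activity, 84.1, belonged to a single element at chr2:98666095-98666594, 956 bp from the TSS of the predicted gene Gm10800. The next was 5.84, so this element stood apart from all others. Its sequence gave 14 alignments to the genome (at least 100 bp at 90% identity or more), while each of the other 9 most active elements gave 1, its own place. It also had the most targets, 62, of which 11 were above 0.05, and its gap to the nearest Ctr element, 2346 kb, was the largest of all 3602. Of its targets the glutamate transporter gene Slc1a2 lay 3992 kb away, with a measured contact of 0 and a score of 0.0273, since the model adds a pseudocount to the contact. The part of repeated sequence in this activity was not tested.

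The other most active elements were paired with no gene of the interferon lists described below. An intron of Lrrc4c (activity 5.84), an intron of Agap1 (5.13), an intergenic site nearest to Jun (4.70), a site 9163 bp from Ccl28, a mucosal chemokine (4.64), which ended 96 bp from a Ctr element, and a site nearest to Gucy1b2 (4.63) followed. Then came an intron of Mvb12b nearest to Lmx1b (4.58), a site in a non-coding exon of Gm17055, 1121 bp from Bhlhe40, a transcription factor of stress and cytokine responses (4.22), a site nearest to Tle3 (4.13) and an intron of Hp1bp3 (4.12). The Jun, Gm10800 and Gucy1b2 elements were those of the 10 with an ISRE-like match.

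By position, 34.2% (32.6 to 35.7) of the IFN-γ-only active elements were classed as intergenic by the authors and the others as genic. In the shared active elements the share was 29.4% (28.5 to 30.3) and in the Ctr-only ones 28.9% (27.4 to 30.5). By the GENCODE M21 annotation the centres lay in introns in 56.0%, between genes in 34.9%, in UTRs in 3.64%, in coding exons in 3.08% and in non-coding exons in 2.36%. The UTR share was 7.55% (7.05 to 8.09) in the shared elements. The median GC content was 49.4% (49.2 to 49.7) against 51.6% (51.4 to 51.7) in the shared elements. The elements were found on 20 chromosomes. On each autosome they were between 23.1% and 30.6% of the active elements, whereas on the X chromosome they were 11 of 162 (6.79%, 3.83 to 11.7). The median activity of all X elements, 0.579, was also below that of every autosome.

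The elements had few targets. They formed 6810 pairs with 5820 genes, 43.9% of them protein-coding, and 55.7% (54.1 to 57.4) had a single target, against 28.9% (28.0 to 29.8) of shared and 59.1% (57.4 to 60.8) of Ctr-only active elements. The median distance to the nearest listed target was 18.6 kb (17.4 to 19.8), against 8.10 kb (7.83 to 8.40) for shared and 14.7 kb (14.1 to 15.4) for Ctr-only elements. Over all pairs the order was different, and the shared elements had the longest median distance, 44.1 kb (42.9 to 45.4), against 32.9 kb (31.1 to 34.8) for IFN-γ-only and 22.4 kb (21.3 to 23.7) for Ctr-only elements. Pairs over 100 kb were 30.6% for IFN-γ-only and 35.6% for shared elements, and pairs over 1 Mb 6.01% and 6.66%. The nearest protein-coding gene was a listed target for 43.3% (41.6 to 44.9) of the elements, against 60.5% (59.6 to 61.5) of the shared ones. A place with more targets had more ways to be listed in the other table. The rule itself thus favoured few targets in the IFN-γ-only and Ctr-only sets.

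Their scores were mostly close to the lower limit of the tables. The best score per element had a median of 0.0294 (0.0290 to 0.0299), against 0.0499 in the shared and 0.0288 in the Ctr-only active elements, and 61.2% of pairs were under 0.03. At least 1 pair above 0.05 was held by 619 elements (17.2%, 16.0 to 18.4), against 49.9% of shared and 13.4% (12.3 to 14.6) of Ctr-only elements. Score and distance are linked through the contact, and over pairs 10 to 100 kb apart the median contact was 0.0142 for IFN-γ-only, 0.0118 for shared and 0.0145 for Ctr-only elements, while within 10 kb it was 0.0358 (0.0348 to 0.0369), 0.0396 (0.0391 to 0.0400) and 0.0368 (0.0360 to 0.0376). Only pairs past the score of 0.02 are listed, so the contacts of less active elements are those that were high enough to pass. The score also holds the activity used by the rule, and a place with scores far above 0.02 was more likely to be listed in both tables. The lower scores of the IFN-γ-only and Ctr-only elements are thus partly set by how they were chosen.

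**Figure D3:**
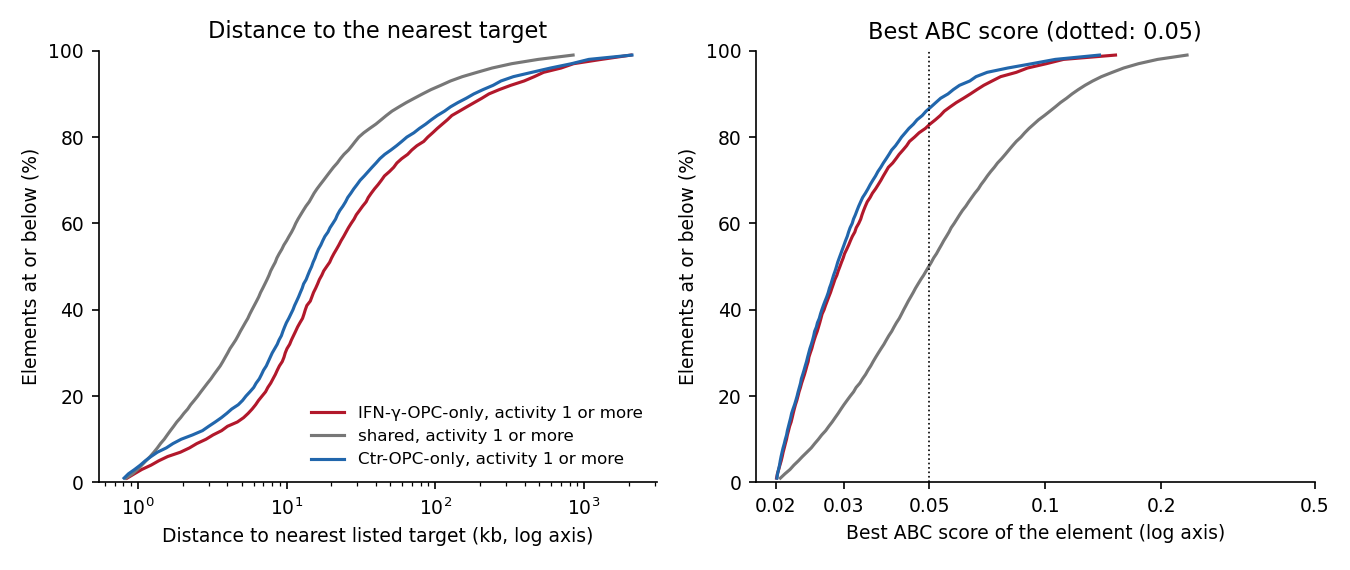
Cumulative share of elements (y, %) by the distance to the nearest listed target (left, x, kb on a log axis) and by the best ABC score (right, x, log axis, dotted line at 0.05), for percentiles 1 to 99. IFN-γ-only and Ctr-only active elements lay further from their nearest listed target (medians 18.6 and 14.7 kb) and scored lower (medians 0.0294 and 0.0288) than shared active elements (8.10 kb and 0.0499). Both sets were chosen by absence from the other table, which favours few and low-scoring pairs.

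The 10 highest scores included 3 lincRNAs, 3 processed pseudogenes and 3 protein-coding genes. The lincRNA Gm33912 had the top pair (0.431, 3.21 kb away), followed by Magee1 on the X chromosome (0.369, 0.830 kb), the pseudogene Gm20039 (0.343), and the lincRNAs 9330185C12Rik (0.326, 201 kb) and AC120429.1 (0.298). The pseudogene Gm49139 (0.287), Ssbp2 (0.259, 0.772 kb), the pseudogene Gm8767 (0.251), 6330415B21Rik (0.249) and Pcdh17, a protocadherin (0.218, 1.41 kb), came next. The element paired with Gm8767 held 6 ISRE-like matches and its least fold was 21.5. Of the 10, Gm33912, Gm20039 and Gm49139 were not listed in the Ctr table at any element. After the Gm10800 element the most targets, 14 each, were held by the elements nearest to Jun and Ccl28, by one in the Hist1h1d histone cluster and by one in H2afz, which encodes a histone variant.

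The interferon genes were described through 3 lists, IFN-γ response (70 genes), antigen presentation (39) and GTPases of the Gbp and Irg families (23), beside a list of OPC and oligodendrocyte lineage genes (34). Of all 26591 IFN-γ target genes 21.9% had an IFN-γ-only active element and 3.05% had one above 0.05. Of the Gbp and Irg genes 10 of 12 listed genes had one and 7 had one above 0.05. Of the IFN-γ response genes it was 24 of 54, with 9 above 0.05, of the antigen presentation genes 8 of 28, with 3 above 0.05, and of the lineage genes 7 of 32, with 2 above 0.05 (Nfib and Bcan). The Ctr-only active elements, which 19.5% of the 25779 Ctr target genes had, were paired with 1 of 8 Gbp and Irg genes, 3 of 45 IFN-γ response genes, 6 of 23 antigen presentation genes and 7 of 31 lineage genes.

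Seen from the elements, 15 of the 16 active elements whose nearest protein-coding gene was a Gbp or Irg gene overlapped no Ctr element (93.8%, 71.7 to 98.9), and the Ctr table had no active element nearest to any of these genes. Near IFN-γ response genes it was 18 of 54 (33.3%, 22.2 to 46.6) and near antigen presentation genes 8 of 24 (33.3%, 18.0 to 53.3), intervals that include the 26.6% of all active elements. Near lineage genes it was 22 of 125 (17.6%, 11.9 to 25.2). Of these 4 lists the GTPase genes had the one interval above 26.6%. Of the 10 GTPase genes paired with an IFN-γ-only active element, 5 were not listed in the Ctr table. A place can be listed there only through a listed gene, whatever its activity. How far this set the counts near these genes was not tested.

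**Figure D4:**
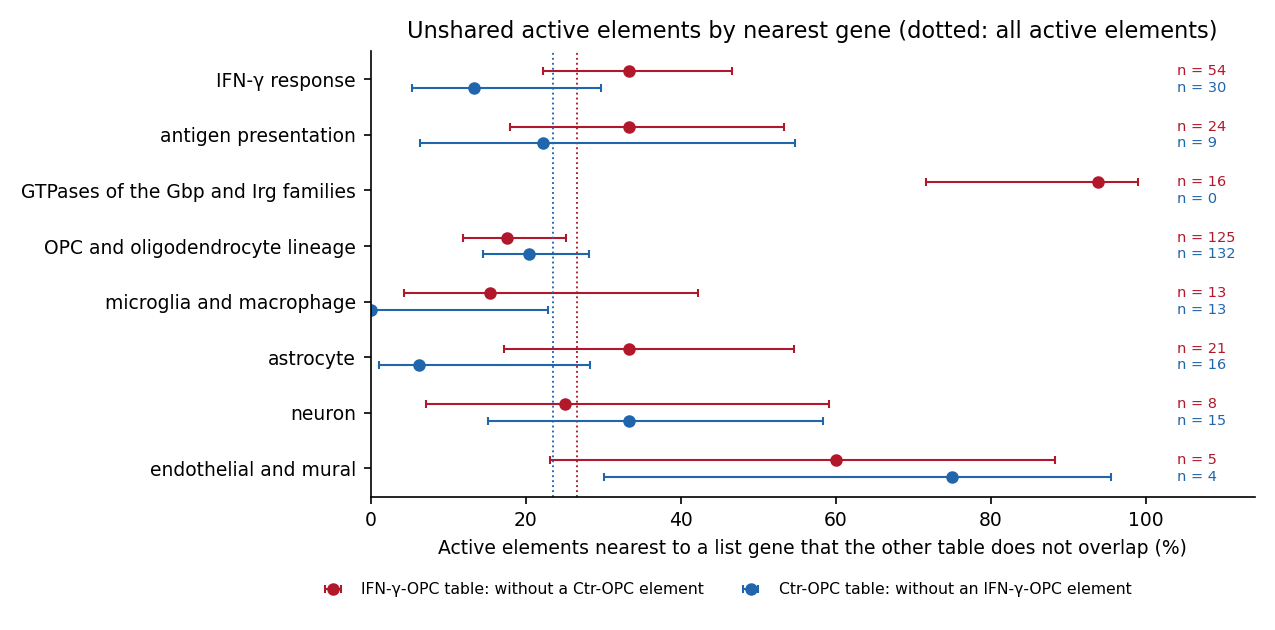
Share of active elements nearest to a gene of each list that the other table does not overlap (x, %), with 95% Wilson intervals; n is the number of active elements, and dotted lines are the shares over all active elements, 26.6% for the IFN-γ table (red) and 23.5% for the Ctr table (blue). Gbp and Irg genes stood apart with 15 of 16 in the IFN-γ table and no active element in the Ctr table. Of the 10 of these genes paired with an IFN-γ-only active element, 5 were not listed in the Ctr table, where a place appears only through a listed gene.

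The signalling genes of the pathway had such elements at several levels. Irf1, an early transcription factor of the response, had 3, with ABC scores of 0.113, 0.0218 and 0.0211 and activities of 2.05, 1.25 and 1.31. All 3 lay between 9.9 and 16.3 kb from its TSS. Irf1 was not listed in the Ctr table at all, so that no Ctr element of its own can be compared. Irf9, an IRF that binds ISREs, had 1 at 0.0470, which it shared with Psme2, a proteasome activator subunit (0.0448). Stat3 had 1 at 0.0269.

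The negative regulator Socs1, which inhibits the JAK kinases, had an element of activity 2.62 at 0.0753, 1.77 kb from its TSS, with 2 ISRE-like matches, both in the stretch printed above, the nearer 6 bp from its centre. Its promoter activity quantile, the rank of a promoter among all promoters from 0 to 1, was 0.9997 with IFN-γ and 0.933 without. The same element reached 9 genes, among them the protamine gene Prm3 with the best score, 0.0804. It belonged to a group of 6 IFN-γ-only active elements within 96.7 kb around Socs1, Tnp2 and Rmi2, the size of the largest groups found. Il18bp, a secreted inhibitor of interleukin 18, had an element in its own UTR (0.0744) and another in a coding exon of Numa1 (0.0301).

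Among the chemokines, 1 element in an intron of Art3 (chr5:92332408-92332907, activity 2.56) was paired with Cxcl9 (0.158, 4.58 kb), Cxcl10 (0.0686, 16.2 kb) and Cxcl11 (0.0465, 32.8 kb). This was the highest score of any gene of the 4 lists. Its activity times contact for Cxcl9 was 13.9-fold the Ctr listing limit, but the element lies 831 bp from the Art3 TSS, so this is a least fold only if the Ctr run did not class the place as a promoter. All 3 genes were listed in the Ctr table through other elements. Between Cxcl10 and Cxcl11 a shared element reached 3.31 in activity with IFN-γ, against 0.503 and 0.296 at the 2 Ctr elements it overlapped. The promoter quantile for Cxcl9 was 0.472 with IFN-γ and 0.618 without, 0.789 and 0.642 for Cxcl10, and 0.610 and 0.417 for Cxcl11.

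The Gbp and Irg genes had the densest coverage. On chromosome 5, the element between the Gbp4 and Gbp10 TSSs (chr5:105145435-105146135, activity 3.75) held 3 ISRE-like and 2 GAS-like matches and was paired with Gbp4, Gbp8 and Gbp9 at 0.105 each, since their TSSs lie side by side. A second element, in an intron of Gbp8, scored 0.0499 with these genes and another 0.0235. Gbp11 had 0.0704 and 0.0209, and Gbp10 0.0308 and 0.0221. Gbp4, Gbp8, Gbp9 and Gbp10 were not listed in the Ctr table. On chromosome 3, Gbp5 had 2 elements in its own introns (0.0468 and 0.0407) and Gbp7 had 2, the better at 0.0431. On chromosome 11, Igtp and Irgm2, again with neighbouring TSSs, had 5 elements in common, with scores of 0.0623, 0.0531, 0.0269, 0.0235 and 0.02, and 1 pair each in the Ctr table. Iigp1 had 1 at 0.0705 and was not listed in the Ctr table.

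Of the class II antigen presentation genes, H2-Eb1 had 2 (0.0519 and 0.0447) and H2-Aa 2 (0.0502 and 0.0256), both through the element at chr17:34296002-34296501 (activity 3.43) and its neighbour. H2-Ab1 had 2 (0.0351 and 0.0322). H2-Ob, the β chain of the DO molecule that modulates peptide loading, had 1 at 0.0848. These elements made a group of 5 within 70.2 kb that also held 3 shared active elements, and 1 of the 5 had an ISRE-like match. Of the elements that overlapped between the tables in this region, several differed in activity too. Near H2-Ab1 one had 3.10 with IFN-γ against 0.614 without and its neighbour 2.43 against 0.986, and near H2-Aa one had 2.70 against 1.05. One between these genes was nearly equal, at 0.760 against 0.838. The class I regulator Nlrc5 had 1 at 0.0292 and the gene of the invariant chain, Cd74, had 1 at 0.0329, and neither was listed in the Ctr table.

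**Figure D5:**
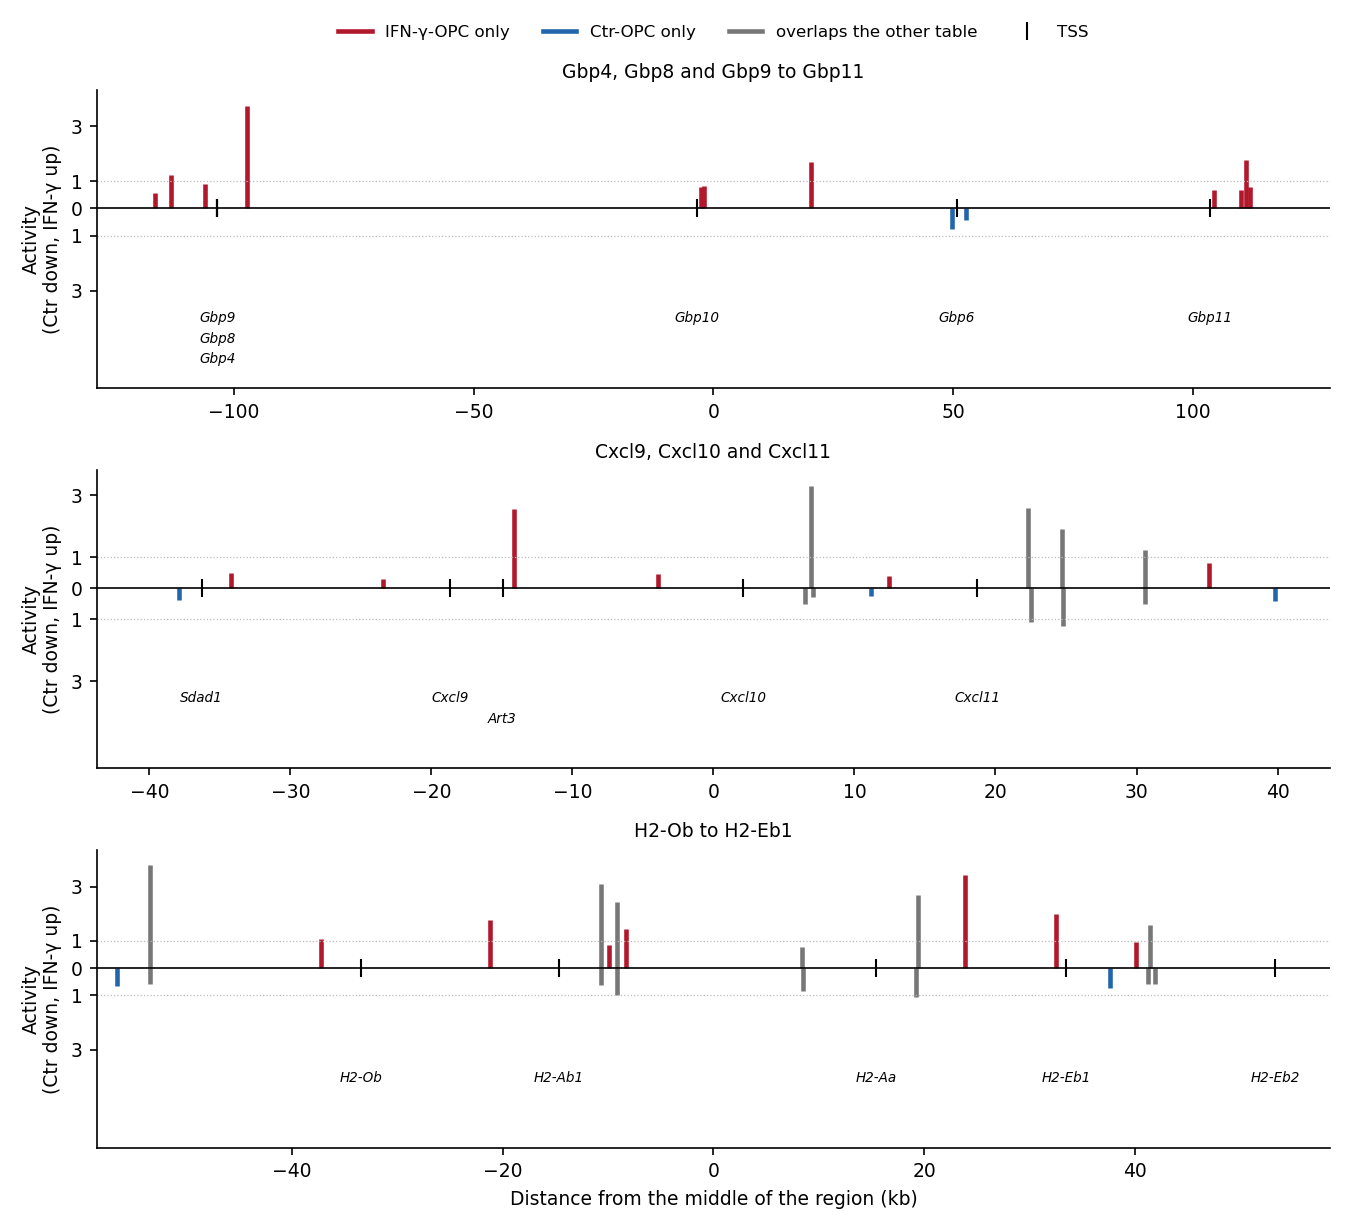
Activity of each element (bar height, y, IFN-γ table above and Ctr table below the line, no unit) by distance from the middle of the region (x, kb) around Gbp genes, Cxcl genes and class II H2 genes; ticks are TSSs and dotted lines mark activity 1. Red bars overlap no Ctr element, blue bars no IFN-γ element. In the Gbp region every IFN-γ bar was red, whereas in the H2 and Cxcl regions red bars stood among gray bars that overlap the other table. The genes Gbp4, Gbp8, Gbp9 and Gbp10 were not listed in the Ctr table.

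Further interferon-stimulated genes had a single element. The element in an intron of Ifit2 (activity 1.84) was paired with Ifit3 (0.0649), Ifit2 (0.0480) and Ifit1 (0.0234), with an ISRE-like match 3 bp from its centre. The element 19.5 kb from Parp9 (activity 3.45) was paired with Dtx3l and Parp9 (0.0614 each), which are transcribed from neighbouring TSSs, and with Parp14 (0.0320). Lap3, an aminopeptidase, had 0.0756, Zbp1, a nucleic acid sensor, 0.0307, Usp18, which removes ISG15, 0.0257, and Mx2 0.0224. In all, 42 genes of the 3 interferon lists formed 68 pairs with 44 elements, 16 of which held an ISRE-like and 17 a GAS-like match. Of the 14 elements with such a pair above 0.05, 8 held an ISRE-like match, 7 a GAS-like match and 11 either of them. Over all IFN-γ-only active elements, at any score, 19.2% held an ISRE-like match, 27.4% a GAS-like match and 6.33% both. The share of all elements with either match is thus higher than the share with each motif.

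Of the lineage genes, Nfib, a transcription factor of glial differentiation, had the best pair (0.108), with an element 0.903 kb from its TSS. Bcan, a proteoglycan of the brain matrix, had 0.0585. Olig1 had 0.0282 and 0.0204, and Olig2, both of them lineage transcription factors, 0.0240. Nkx2-2 had 0.0234, Sox9 0.0270 and the proteoglycan Vcan 0.0252. Each of these 7 genes was listed in the Ctr table through other elements. The other group of 6 lay within 29.2 kb near Sox2, a transcription factor of neural progenitors, with 6 shared active elements between them and no ISRE-like match in the 6. Next in size, the most active group of 5 lay around Mroh2a, Hjurp and Trpm8, with activities up to 3.69. Of all 3602 elements, 2486 (69.0%) lay alone, with no other within 50 kb, against 66.3% of the Ctr-only active elements.

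The OPC identity of both tables was checked at the promoters of known markers. Olig2 had a promoter quantile of 0.994 with IFN-γ and 0.982 without, Sox10 0.911 and 0.925, and Pdgfra 0.815 and 0.851. Of 20 microglia and macrophage genes 12 were listed with IFN-γ and 11 without, with medians of 0.679 and 0.672, close to those of all genes (0.686 and 0.688). The medians of the astrocyte list, 0.778 and 0.771, lay above those of all genes, and those of the lineage list were 0.850 and 0.871. Of the microglia genes Aif1 (0.471) and Tmem119 (0.744) were listed in IFN-γ-OPCs only and Tyrobp (0.663) in Ctr-OPCs only. Csf1r was higher with IFN-γ (0.625 against 0.473), Fcer1g (0.585 against 0.705), Spi1 (0.676 against 0.704), Cx3cr1 (0.604 against 0.621) and Lyz2 (0.604 against 0.617) were lower, and Ptprc, Itgam and C1qa were listed in neither. IFN-γ-only active elements were paired with 2 of the 12, among them Ly86 (0.0659), with 4 of 9 astrocyte, 2 of 12 neuronal and 1 of 8 endothelial and mural genes, where 21.9% of all IFN-γ target genes had such an element. Of the 4 astrocyte genes, Slc1a2 was paired only with the chromosome 2 element of 14 alignments, at a measured contact of 0. Of these 4 lists only Ly86 had a pair above 0.05. Whether other cells in the culture contributed to the elements was not tested, and fewer cells of a type cannot be told apart from less signal per cell in these bulk samples.

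Finally, the target genes themselves were compared between the tables. Of the 5820 targets, 1738 (29.9%) were not listed in the Ctr table, against 23.6% of all IFN-γ target genes, and of the 811 targets above 0.05 it was 325 (40.1%). A place can be listed in the Ctr table only through a gene listed there. Elements of unlisted genes were thus more likely to be chosen, and 796 elements had no target in the Ctr table. These shares are therefore partly set by the rule and are a description. For the genes listed in both tables, the summed activity times contact changed by a median of -0.04 on the log2 scale (-0.04 to -0.03) at the 4082 targets and -0.07 at all 20321 genes. That total holds the input of the elements the rule chose. Without it the medians were -0.09 (-0.10 to -0.08) at the targets and -0.07 at all genes, but taking it out can only lower the targets, since the input of Ctr-only elements was kept, so these values are a description. At the 486 targets above 0.05 it was 0.04 (0.02 to 0.08) and, after the IFN-γ-only elements' own input was taken out, -0.07 (-0.10 to -0.05). At the 136 targets above 0.05 of elements with an ISRE-like match it was 0.14 (0.10 to 0.21), and 0.02 (-0.03 to 0.07) without that input.

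The promoter quantile is measured at the promoter, apart from the elements. A quantile at least 0.05 higher in IFN-γ-OPCs was found for 18.1% of all genes in both tables and one at least 0.05 lower for 17.7%. For the targets of the IFN-γ-only active elements the shares were 19.7% and 16.2%, for those above 0.05 they were 21.8% and 11.5%, and for those above 0.05 of elements with an ISRE-like match 26.5% (36 genes) and 11.0% (15 genes). Most of these target promoters differed by less than 0.05. In the lists it was higher for 6 of 6 Gbp and Irg genes listed in both tables, 27 of 42 IFN-γ response genes (2 lower), 16 of 19 antigen presentation genes (none lower) and 2 of 30 lineage genes (1 lower).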

How the data were processed

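H3K27ac HiChIP libraries of cultured OPCs (3 per condition) were aligned by the authors to mm10 with HiC-Pro (version not given in the sources used here), and per the study's methods the ABC model was run with default parameters on ATAC-seq, H3K27ac CUT&RUN and HiChIP contacts. The deposited table of each condition holds, per pair, the activity as a signal, the contact, the activity times contact and the promoter quantile as a score, and the ABC score as a fraction (0 to 1). Replicates were pooled by the authors, no depth is given, and both tables start at an ABC score of 0.02. How activities were scaled between the tables is not given; their medians over elements were 0.803 (IFN-γ) and 0.866 (Ctr). The authors' shorter tables and paired-position files of the same predictions were not used. Distances are in bp, and samples were grouped by the treatment in the labels.

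Elements were made unique by position and the overlap of at least 1 bp with any Ctr element was computed (Python 3.11.15, pandas 2.3.3, SciPy 1.17.1, pysam 0.24.0). Genes were named through GENCODE M21 (26103 of 26591 target identifiers matched), and sequence and repeat masking were read from the GRCm38.p6 RefSeq genome, whose chromosomes are those of mm10. Lists were matched by symbol. Shares have Wilson intervals and medians order-statistic intervals; no test was possible with 1 pooled table per condition. Motifs were exact letters on both strands. Copies of the 10 most active elements were counted with blastn 2.17.0 (megablast). The overlap and motif steps were tested on simulated data. Genes and elements were named by rule: the 10 highest activities and scores, the 5 with most targets or ISRE-like matches, those tied to the 4 lists, the 3 largest groups within 50 kb and the 3 nearest to the minimum on each side. The elements, lists and comparisons were chosen with earlier results of these data known. Alternatives were the activity minimum, activities divided by each table's median, the overlap rule, the score threshold, the genes compared, the motif window and spacing, and the grouping distance; restrictions to elements of 500 bp, to elements 2 kb or more from a TSS, to the central 500 bp and without the most active element were added after seeing the data. Some items named by this rule are not reported here.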

Additional observations from a re-analysis of the deposited data

How the results depend on the processing

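No paired analysis was possible because each deposited table pools the 3 libraries of its condition, and for the same reason no library could be left out. None of the 8 values below changed sign under the alternatives run for it. The change at the 136 targets above 0.05 of elements with an ISRE-like match, without the elements' own input, was 0.02 and became -0.03 over the 62 protein-coding ones, and the median change in promoter quantile at all targets was 0.00123 and became -0.000633 over protein-coding ones. Of the 79 values recomputed for the 8 descriptions below, 39 stayed within their interval (for a count, within 1.5 times) and 40 moved. The 39 include values that could not move. Among them are the count of elements with activities divided by each table's median, and the change at targets that the Ctr table lists, since that change uses only genes in both tables. In the report there were 3602 elements, 34.2% of them intergenic, 55.7% had 1 target, 19.2% an ISRE-like match and 69.0% lay alone. The median pair distance was 32.9 kb, the median pair score 0.0269 and the median log2 change of the targets' totals -0.0377. The cause of the shifts was not tested.

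With an activity minimum of 0.5 there were 10644 elements (Ctr-only 9597), 68.5% with 1 target, a median pair distance of 13.9 kb, 16.5% with an ISRE-like match and 41.3% alone. With a minimum of 2 there were 517 (Ctr-only 423), 35.2% with 1 target, a distance of 76.6 kb, a score of 0.0277, 21.9% with an ISRE-like match, a change of -0.0103 and 86.3% alone. When only an overlap of at least 50% of the element removed it, 52.7% had 1 target, the score was 0.0278 and 65.8% lay alone. With pairs above 0.05 in both tables there were 2094 elements, 32.2% intergenic, 77.0% with 1 target, a distance of 7.39 kb, a score of 0.0630, 17.5% with an ISRE-like match and 76.6% alone. Among elements with a target that the Ctr table lists, 32.4% were intergenic, 49.0% had 1 target, the distance was 35.8 kb and 72.5% lay alone.

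With activities divided by each table's median the IFN-γ-only elements stayed at 3602 and the Ctr-only ones numbered 2759 in place of 3248. The first count uses no activity of the Ctr table, so rescaling that table could not change it. The ISRE-like share was 9.05% in the central 250 bp (3.79% of shared and 1.91% of Ctr-only active elements), 14.2% in the central 500 bp (7.45% and 4.43%) and 9.94% (9.004 to 11.0) with 3 free bases (6.47% of shared and 8.47%, 7.56 to 9.47, of Ctr-only elements, an interval that overlaps). The distance to the nearest listed target was 18.6 kb, the change over protein-coding targets -0.0531, and 82.7% lay alone within 20 kb. Over elements of exactly 500 bp there were 1783, 39.8% intergenic, with a distance of 43.3 kb, a change of -0.0121 and 79.8% alone. At 2 kb or more from every TSS, 57.5% had 1 target, the distance was 35.2 kb and the score 0.0262. Depth is not given, so it is unknown which elements were missed in either table for want of reads.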
